A study of Mus musculus with 9 samples.

Results

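High dose arch was compared with control arch, that is, treated mice without ApoE with wild type mice. Of the 9 RNA sequencing libraries of aortic arch, 6 entered the comparison: the 3 titled as the high dose group and the 3 titled as the control group. Of 21989 genes in the table, 12492 had at least 1 FPKM in at least 3 of these 6 libraries and were tested. FPKM is a gene's fragment count scaled by gene length and by the library's total. Control mice were C57BL/6J, the inbred wild type strain, on a standard diet. High dose mice were ApoE-/-, ate a high-fat diet, and were given ZCL, as the labels call the preparation, by gavage at 5.12 g/kg/day over 15 weeks. The 3 model libraries, from untreated ApoE-/- mice on the same diet, are given beside them and did not enter the test. The study's title concerns Ziziphora clinopodioides Lam., a plant of the mint family, with oxidative stress and lipid metabolism as its themes.

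Genotype, diet and treatment all differed between high dose and control, so their parts in any difference cannot be told apart. The labels used here state no age, sex or time of day of collection. Each group is described as 20 mice, but the labels do not say whether a group's 3 libraries are from different mice or from pools. The p-values then reflect the spread among these libraries alone, and that spread may be technical. In bulk tissue, fewer cells of a type and less RNA per cell cannot be told apart.

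ApoE is the apolipoprotein by which remnant lipoproteins are cleared from the blood. Without it, and faster on a fatty diet, cholesterol-rich particles lodge in the inner layer of the arch, monocytes follow and become lipid-filled foam cells, and smooth muscle cells lose contractile proteins and make matrix. Reactive oxygen species from NADPH oxidases take part, and antioxidant genes answer them through the factor NRF2.

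The libraries held the tissue in the labels, along with neighbouring tissues in amounts that differed between libraries. Smooth muscle, endothelial and fibroblast genes were present in all 6, with Myh11 between 49.2 and 323 FPKM, Pecam1 between 118 and 198 and Dcn between 263 and 1329. Over the 16 tested heart muscle genes, the mean log2(FPKM + 1) was 9.80, 8.21 and 1.79 in control and 1.64, 8.32 and 9.71 in high dose. Each group thus held 2 libraries high and 1 low in heart muscle genes, and the median difference of that list was -0.12. Airway genes were highest in control 2 and high dose 2, skeletal muscle genes in high dose 2, neuronal genes in high dose 1 and brown fat genes in control 3. Each of those lists overlapped between the groups. Relative depth, read from the steps between low values, lay between 72.9% and 100.0% of the deepest of the 6 libraries.

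**Figure D1:**
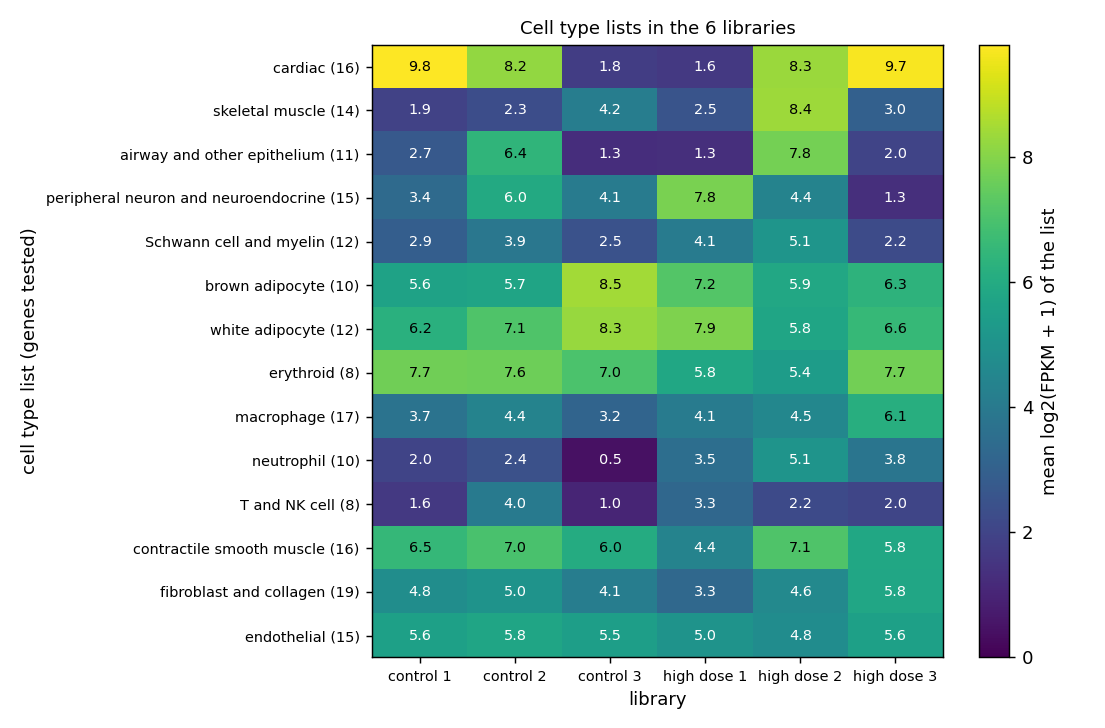
Mean log2(FPKM + 1) of each cell type list (rows, number of genes tested in brackets) in each of the 6 libraries (columns), printed in every cell and shown by colour. Heart muscle genes were at 9.80 and 8.21 in control 1 and 2 and at 8.32 and 9.71 in high dose 2 and 3, and at 1.79 in control 3 and 1.64 in high dose 1.

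Neutrophil, macrophage, chemokine, interferon-induced and fatty acid synthesis genes were higher on average in high dose arch than in control, metallothionein genes were higher, and fatty acid oxidation, contractile smooth muscle and erythroid genes were lower on average. No single gene passed the test. With limma on log2(FPKM + 1), 3 libraries against 3 and Benjamini-Hochberg adjustment over 12492 genes, 0 genes had an adjusted p under 0.05 and the smallest adjusted p was 0.999. At an unadjusted p under 0.05 there were 450 genes, 242 higher (1.94% of those tested) and 208 lower (1.67%), where 0.05 of the tests is 625. Genes whose 3 high dose values did not overlap the 3 control values numbered 450 higher (3.60% of those tested) and 625 lower (5.00%), together 8.61%. If the 6 libraries were interchangeable, 0.1 of the genes would be without overlap, the smallest exact p of 3 against 3. Lack of overlap in a single gene is thus not by itself a result, and list counts below are to be read beside these shares. The statements below on higher and lower genes are therefore descriptions of these 6 libraries. Differences are given on the log2(FPKM + 1) scale, high dose minus control, with the limma standard error, and ratios are of mean FPKM, with n = 3 in each group.

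Apoe (chromosome 7, 19696109 to 19699188 on GRCm38), the deleted gene, checked the labels. It was at 829, 1006 and 339.9 FPKM in control, 30.3, 93.7 and 25.4 in high dose and 18.9, 33.4 and 24.5 in model. All 6 ApoE-/- libraries lay below all 3 control libraries, at levels that were reduced and not 0. The high dose difference was -3.94 ± 0.63, with a 95% interval from -5.44 to -2.45, and an exact two-sided permutation test gave p = 0.1, the smallest that 3 against 3 libraries can give.

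The neutrophil list was higher in high dose. All 10 of its tested members (of 14 listed) were higher in high dose, where 50.2% of all genes tested were. Among the 10, 6 did not overlap control: S100a8, S100a9, Mmp8, Ngp, Csf3r and Retnlg. Of all genes tested, 3.60% were likewise higher without overlap. The list's median difference was 2.22, against 0.0017 over all genes tested, and its median in model minus control, which shares the control libraries, was 0.86. With 1 library left out the neutrophil median ran from 1.62 (without control 3) to 3.53 (without control 2). Retnlg (chromosome 16, 48872621 to 48874496), a resistin-like secreted protein of neutrophils, was at 4.30, 1.38 and 0.127 FPKM in control and 20.2, 50.7 and 31.4 in high dose. Model libraries had 3.35, 6.94 and 3.40, around the highest control value. The high dose difference for Retnlg was 3.76 ± 0.61 (95% interval 2.31 to 5.21), a ratio of 17.6 between the means.

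S100a8, a subunit of the neutrophil protein calprotectin, was at 21.1, 8.36 and 0.589 FPKM in control and 74.9, 453 and 82.6 in high dose. Its partner S100a9 had 34.8, 8.66 and 0.147 in control and 108, 410.5 and 62.9 in high dose. For both genes control 3 was lowest and high dose 2 highest. The primary granule genes Mpo and Elane, markers of immature neutrophils, were at most 0.335 FPKM in the 3 controls and reached 1.86 and 6.45 in high dose 2, but both were too low to be tested. Mean log2(FPKM + 1) over the 10 tested genes was 2.02, 2.44 and 0.45 in control, 3.55, 5.08 and 3.80 in high dose and 2.31, 2.49 and 2.35 in model.

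Macrophage genes were higher in high dose on average, with most of the height in 1 library. Of 17 tested members (of 20 listed) 16 were higher, with a median of 1.35. Cd68 and Mpeg1 did not overlap control, and 3.60% of all genes tested were likewise higher without overlap. Cd68, a lysosomal glycoprotein of macrophages, was at 11.9, 16.2 and 8.39 FPKM in control and 19.0, 34.7 and 144 in high dose, a difference of 1.88 ± 0.71 (0.19 to 3.57). High dose 3 alone reached the range of model, which had 396, 67.5 and 64.2. Adgre1, which encodes the macrophage marker F4/80, was at 1.80, 1.90 and 1.74 in control and 1.85, 2.65 and 6.96 in high dose, so that 2 of 3 treated libraries were near control. Model had 12.4, 27.8 and 7.80. The median model minus control difference of the list was 2.18. Without high dose 3 the list median was 0.58, and without high dose 1 it was 1.84. Without high dose 3 the Cd68 difference was 1.06, and the highest on leaving out another library was 2.49.

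Genes of lipid-laden macrophages included the largest of these differences. Gpnmb (chromosome 6, 49036546 to 49070929), a transmembrane glycoprotein that foam cells express at high levels, was at 6.34, 5.53 and 3.24 FPKM in control and 25.6, 46.5 and 253 in high dose. All 3 treated libraries were above all 3 controls, and 2 of them were below the lowest model value, since model had 1269, 76.6 and 114. The difference was 3.54 ± 0.80 (1.64 to 5.44). Mmp12, macrophage elastase, was at 0.693, 0.646 and 0.286 in control and 3.23, 6.71 and 52.1 in high dose. Spp1, osteopontin, was at 4.50, 87.2 and 1.30 in control and 35.7, 157 and 1755 in high dose, and here the groups overlapped. Trem2, the lipid-sensing receptor of foamy macrophages, overlapped as well, with 11.7, 9.90 and 1.54 in control and 3.96, 11.4 and 71.8 in high dose, and an interval from -1.30 to 3.75. In all, 15 of 19 tested members of this list were higher (of 20 listed), with a median of 0.78 against 1.79 in model minus control. Without high dose 3 that median was 0.24, and the highest on leaving out a library was 1.16 (high dose 2). Gpnmb, Mmp12, Cd5l and Atp6v0d2 were higher without overlap, and Cd36, the scavenger and fatty acid receptor, was lower without overlap (457, 380.3 and 869 in control, 323, 80.9 and 254 in high dose). Over all genes tested, 3.60% were higher and 5.00% lower without overlap.

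**Figure D2:**
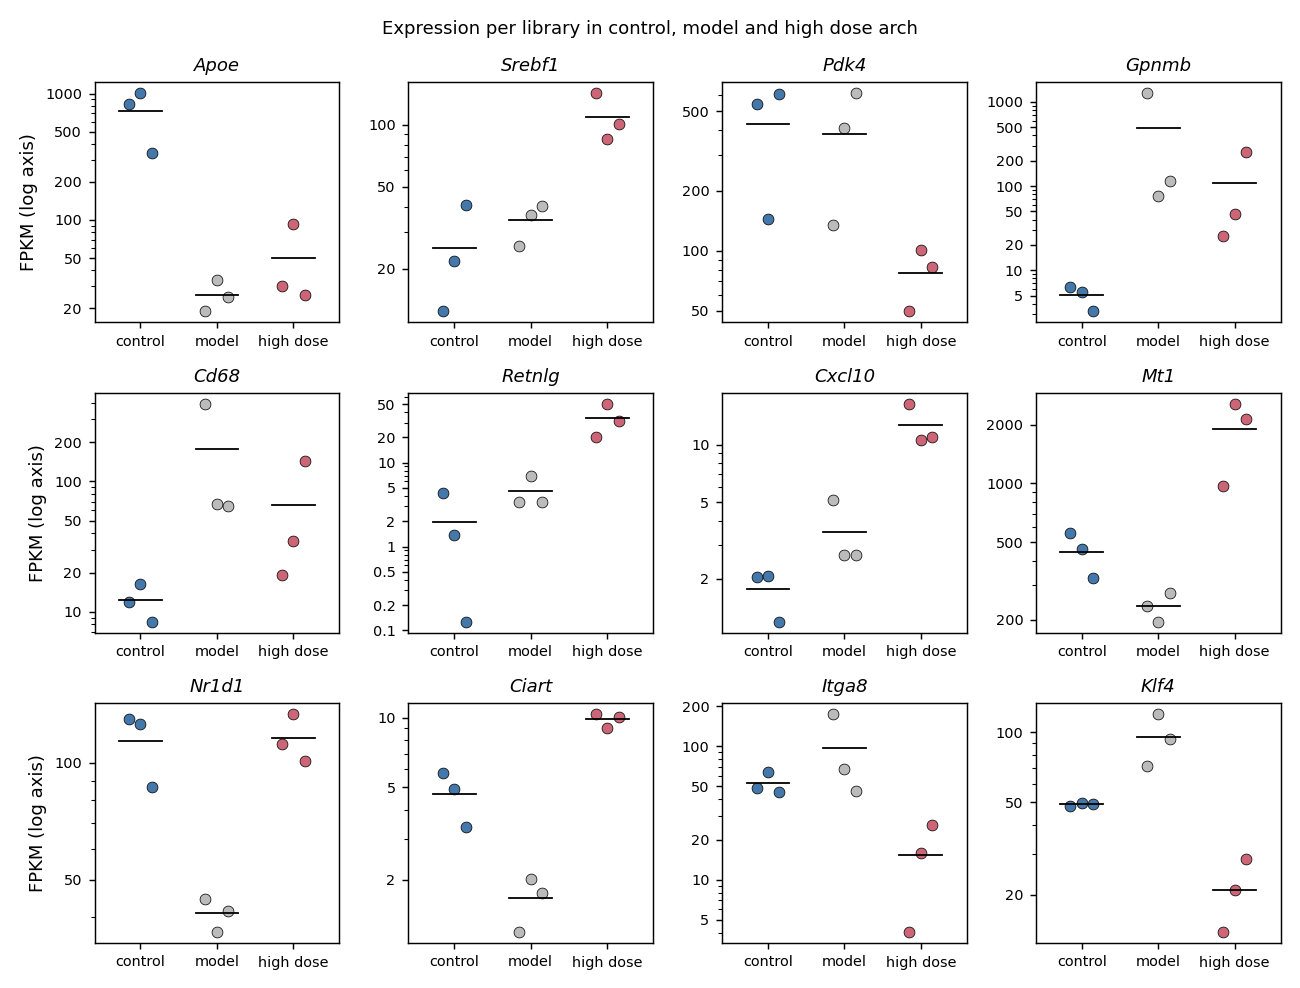
FPKM of 12 genes on log axes, each point 1 library, by group (control, model, high dose), with the bar at the group mean. Srebf1, Retnlg, Cxcl10, Mt1 and Ciart in high dose lie above both control and model, Pdk4, Itga8 and Klf4 lie below both, and Nr1d1 in high dose (101 to 134 FPKM) overlaps control (86.7 to 130.1).

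Of the chemokine, cytokine and adhesion genes, 19 of 21 tested (of 25 listed) were higher, with a median of 1.18. Those without overlap were 5, Ccl2, Ccl7, Cxcl2, Cxcl10 and Il1rn, where 3.60% of all genes tested were higher without overlap. The list median was 0.45 without high dose 3, whose list mean of 4.22 stood above the 2.64 and 2.92 of the other treated libraries. In model minus control the list median was 0.93. Cxcl10 (chromosome 5, 92346638 to 92348889), an interferon-induced chemokine that attracts T cells, had the smallest p of all genes tested. It was at 2.04, 2.06 and 1.19 FPKM in control and 16.4, 10.6 and 10.9 in high dose, with 5.12, 2.66 and 2.66 in model. The treated libraries were above both other groups, by 2.30 ± 0.29 over control (1.60 to 2.99), and limma gave an unadjusted p of 0.000117 and an adjusted p of 0.999. Cxcl2, which attracts neutrophils, was at 4.25, 0.543 and 0.0711 in control and 15.3, 12.6 and 12.1 in high dose. Model had 3.89, 17.1 and 9.04 for Cxcl2, overlapping high dose. Ccl2, which attracts monocytes, was at 4.09, 7.41 and 3.25 in control and 14.4, 7.45 and 41.8 in high dose, so that the lowest treated value lay just above the highest control. The adhesion molecules overlapped: Vcam1 had 28.8, 25.1 and 7.43 in control and 13.8, 13.2 and 86.6 in high dose, and Selp, P-selectin, had 1.94, 4.08 and 1.32 against 2.98, 4.78 and 18.4.

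Interferon-induced genes were higher in 16 of 17 tested (of 18 listed), with a median of 0.69. Ifit1, Ifit3, Irf7 and Oasl2 did not overlap control, and 3.60% of all genes tested were likewise higher without overlap. Ifit3, an antiviral effector, was at 8.43, 9.09 and 4.97 FPKM in control and 12.5, 20.6 and 31.0 in high dose, with 7.16, 8.07 and 7.50 in model. Ifit1, of the same family, was at 4.72, 8.67 and 2.54 in control and within 11.3 to 12.2 in all treated libraries. Model had 3.36, 5.73 and 4.49, inside the control range. Over the whole list the median of model minus control was 0.47. The list's mean log2(FPKM + 1) was 3.13 in control, 3.67 in model and 3.70 in high dose, with high dose 1 (3.51) below control 2 (3.56). Oasl1, outside the list, was at 0.934, 1.93 and 1.26 in control and 4.09, 4.51 and 4.99 in high dose. Reads of Ifit3 can be shared with its near-identical copy Ifit3b, and how the authors counted such reads is not stated in the labels.

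Promoters of Cxcl10, Ifit1 and Ifit3 are shown because these genes were high in all 3 treated libraries. The sequences are from RefSeq on GRCm38.p6, run 5′ to 3′ on the gene's strand from 250 bases before to 50 bases after the start, and lie at chr5:92348840-92349139 (minus strand), chr19:34640639-34640938 (plus) and chr19:34583279-34583578 (plus). Capitals mark matches of the interferon response element, searched on both strands as GAAA, any 2 bases and GAAA again. Cxcl10 held 1 match and Ifit1 and Ifit3 held 2 each, and 3.44% of 32851 RefSeq promoters of this length hold at least 1. A match is a description of the letters and not a shown site.
Cxcl10: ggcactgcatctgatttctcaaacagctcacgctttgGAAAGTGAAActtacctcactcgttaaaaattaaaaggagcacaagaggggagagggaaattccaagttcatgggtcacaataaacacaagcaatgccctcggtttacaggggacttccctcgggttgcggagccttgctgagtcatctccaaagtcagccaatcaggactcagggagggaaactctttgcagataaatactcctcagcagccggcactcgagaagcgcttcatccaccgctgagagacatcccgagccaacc
Ifit1: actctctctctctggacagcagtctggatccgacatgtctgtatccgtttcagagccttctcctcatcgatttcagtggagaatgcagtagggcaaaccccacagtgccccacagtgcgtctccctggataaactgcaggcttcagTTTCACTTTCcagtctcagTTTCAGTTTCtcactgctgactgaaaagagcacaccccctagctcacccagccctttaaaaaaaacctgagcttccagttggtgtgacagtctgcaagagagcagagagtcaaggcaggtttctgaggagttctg
Ifit3: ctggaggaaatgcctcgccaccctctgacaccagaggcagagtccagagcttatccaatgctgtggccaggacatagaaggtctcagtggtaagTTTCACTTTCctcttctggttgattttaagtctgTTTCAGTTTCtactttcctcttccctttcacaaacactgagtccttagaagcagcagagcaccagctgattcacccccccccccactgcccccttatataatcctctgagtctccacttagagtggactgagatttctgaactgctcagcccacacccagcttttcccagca

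Genes of fatty acid and triglyceride synthesis were higher in 15 of 18 members, all tested, with a median of 1.04. Acaca, Acly, Pnpla3, Srebf1 and Mlxipl did not overlap control, and 3.60% of all genes tested were likewise higher without overlap. The median was 0.37 without control 1 and 1.60 without control 3, whose list mean of 7.07 was above the 5.97 and 6.43 of high dose 2 and 3. Srebf1 (chromosome 11, 60199089 to 60222581), which encodes the transcription factor SREBP-1 of this pathway, was at 12.4, 21.9 and 40.9 FPKM in control and 142, 85.0 and 101 in high dose. Model had 25.9, 36.3 and 40.5, all below the 3 treated libraries. The difference from control was 2.20 ± 0.45 (1.12 to 3.28), a ratio of 4.35. Acly, which makes cytosolic acetyl-CoA from citrate, was at 24.5, 49.6 and 36.9 in control and 209, 72.7 and 116 in high dose. Acaca, which makes malonyl-CoA from it, was at 5.66, 10.3 and 53.6 in control and 155, 64.2 and 108 in high dose. Pnpla3, a lipid droplet lipase and SREBP-1 target, was at 1.16, 2.56 and 13.3 in control and 45.8, 21.1 and 51.1 in high dose. Model had 9.74, 45.1 and 63.0 for Pnpla3, overlapping high dose. The list mean was 5.58 in control, 6.61 in model and 6.58 in high dose. Its median in model minus control was 0.54.

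The end of the same pathway did not separate the groups. Fasn, fatty acid synthase, was at 14.4, 27.5 and 258 FPKM in control and 248, 83.7 and 127 in high dose, and Scd1, the stearoyl-CoA desaturase, at 121, 249.7 and 3389 against 2647, 463 and 1120.3. Their intervals ran from -0.93 to 3.98 and from -1.82 to 4.31. Control 3 was the highest control for Srebf1, Acaca, Pnpla3, Fasn and Scd1. It was also the library highest in fat cell genes, with white adipocyte list means of 6.22, 7.11 and 8.29 in control and 7.89, 5.78 and 6.58 in high dose. Over those 12 fat cell genes 11 were lower in high dose, with a median of -0.41. The part of fat tissue in the lipid gene values was not tested.

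Fatty acid oxidation genes were lower in all 20 members, with a median of -0.98. Pdk4 and Ucp3 did not overlap control, and 5.00% of all genes tested were likewise lower without overlap. The median was -0.41 without control 3 and -1.45 without high dose 1. Pdk4 (chromosome 6, 5483351 to 5496309), the kinase that turns off pyruvate dehydrogenase in fasting, was at 543, 144 and 612 FPKM in control and 49.5, 100.1 and 82.7 in high dose. Model had 134, 410.0 and 615, spread like control. The difference for Pdk4 was -2.27 ± 0.61 (-3.73 to -0.82). Ucp3, a mitochondrial carrier of muscle, was at 45.1, 30.2 and 97.3 in control and 26.5, 13.6 and 13.7 in high dose. Cpt1a, the liver-type gate of mitochondrial fatty acid entry, was at 47.2, 39.7 and 18.0 in control and 39.8, 23.1 and 17.2 in high dose, with an interval from -1.45 to 0.75. The respiratory chain list was lower in 18 of 20 members with a median of -0.44 (-0.060 without control 3) and no gene without overlap. Both lists were highest in control 3, with means of 7.24 and 9.21, the library with Ucp1 of brown fat at 7979 FPKM where the other 5 had 341 to 2281, and the part of brown fat was not tested.

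Cholesterol genes were divided. Abcg1 (chromosome 17, 31057675 to 31117988), a transporter that exports cholesterol to lipoproteins, was at 4.01, 6.28 and 6.12 FPKM in control and 18.2, 12.5 and 23.9 in high dose, with 60.1, 14.0 and 19.5 in model. Both ApoE-/- groups were above control, and the high dose difference was 1.54 ± 0.32 (0.78 to 2.30). Abca1, its partner in efflux and also a target of the sterol receptor LXR, was at 12.1, 13.5 and 21.3 in control and 44.8, 19.4 and 51.9 in high dose, with overlap. The whole list of 17 efflux and LXR genes had 13 higher and a median of 0.18. Of 24 tested genes of cholesterol synthesis and uptake (of 25 listed), 18 were higher with a median of 0.17, and Fdft1, squalene synthase, did not overlap, at 5.11, 11.9 and 9.79 in control and 54.7, 21.1 and 20.0 in high dose. High dose 1 was the highest library for this gene. That 1 of 24 did not overlap is near the 3.60% of all genes tested that were higher without overlap.

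Among oxidant sources, Nox4 (chromosome 7, 87246096 to 87398710), the hydrogen peroxide-making NADPH oxidase of smooth muscle, was lower without overlap, at 18.1, 29.8 and 21.7 FPKM in control and 3.17, 5.32 and 16.1 in high dose (-1.63 ± 0.53, interval -2.89 to -0.36). The mean of the contractile smooth muscle list was also lowest in high dose 1, at 4.37, and was 7.09 in high dose 2. Cybb, the oxidase subunit of phagocytes, was at 3.34, 4.64 and 1.31 in control and 5.26, 4.38 and 16.7 in high dose, against 31.7, 28.6 and 8.11 in model. Nos2, inducible nitric oxide synthase, was at 1.33, 1.72 and 3.25 in control and 2.85, 1.43 and 3.16 in high dose (0.18 ± 0.36, interval -0.68 to 1.04), while model had 5.19, 6.03 and 5.79. The list of 12 tested genes (of 15) had 8 higher and a median of 0.46.

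Antioxidant genes were higher in 13 of 21 tested (of 22 listed) with a median of 0.30. Among them 3 did not overlap control, against 3.60% of all genes tested that were higher without overlap. Hmox1, haem oxygenase 1, was at 19.2, 23.4 and 19.4 FPKM in control and 29.0, 43.2 and 72.9 in high dose. Blvrb, a biliverdin reductase, was at 26.9, 36.7 and 28.2 against 58.2, 51.7 and 64.0. Model had 57.5, 80.9 and 82.2 for Blvrb, so both ApoE-/- groups were above control. Blvrb (chromosome 7, 27447978 to 27466144) lies on the same chromosome as Apoe, and the part of that position in its level was not tested. The third was Txn1, thioredoxin, at 82.5, 157 and 95.4 in control and 189 to 191 in high dose. Nqo1, an NRF2 target, overlapped, with 9.95, 9.37 and 4.86 in control and 6.79, 34.6 and 11.2 in high dose. The superoxide dismutases overlapped too: Sod1 was at 531, 587 and 677 in control and 756, 483 and 572 in high dose, an interval from -0.85 to 0.85, and Sod2 at 66.3, 37.5 and 178 against 82.9, 48.0 and 72.5.

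The metallothionein genes, whose small proteins bind zinc and copper and are induced by metals, glucocorticoids and oxidative stress, were higher without overlap. Mt1 (chromosome 8, 94179082 to 94180327) was at 558, 459.6 and 325 FPKM in control and 968, 2574 and 2151 in high dose, with 235, 195 and 273 in model. Mt2, its neighbour at 94172664 to 94173568, was at 239, 250.1 and 147 in control and 478, 2520.4 and 1486 in high dose, with 181, 72.9 and 152 in model. Every treated library was above every control for both genes, by 2.00 ± 0.51 for Mt1 and 2.55 ± 0.65 for Mt2. In the glucocorticoid-induced list, which holds both, Per1 and Ddit4 were also higher without overlap and Pdk4 was lower, and 7 of 12 tested (of 15) were higher. Tsc22d3, a standard glucocorticoid target, was at 52.3, 84.5 and 21.6 in control and 41.0, 36.8 and 57.9 in high dose. The promoters of Mt1 and Mt2 are shown for their metal response elements, searched on both strands as TGCACNC or TGCGCNC and written in capitals, at chr8:94178839-94179138 and chr8:94172368-94172667, both on the plus strand of GRCm38.p6 in RefSeq. Mt1 held 3 matches and Mt2 held 4, and 25.7% of 32851 promoters hold at least 1.
Mt1: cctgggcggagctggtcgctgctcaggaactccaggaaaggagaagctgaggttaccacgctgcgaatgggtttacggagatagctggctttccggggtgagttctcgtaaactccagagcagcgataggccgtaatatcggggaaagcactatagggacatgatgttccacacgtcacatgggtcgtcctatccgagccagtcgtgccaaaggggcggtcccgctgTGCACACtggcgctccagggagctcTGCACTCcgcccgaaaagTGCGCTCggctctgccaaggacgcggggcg
Mt2: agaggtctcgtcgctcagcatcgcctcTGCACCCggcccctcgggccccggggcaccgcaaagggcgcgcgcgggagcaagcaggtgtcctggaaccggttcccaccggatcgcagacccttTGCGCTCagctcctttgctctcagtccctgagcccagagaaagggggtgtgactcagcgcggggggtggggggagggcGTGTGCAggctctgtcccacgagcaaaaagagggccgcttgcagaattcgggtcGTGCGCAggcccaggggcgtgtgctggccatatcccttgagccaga

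Contractile smooth muscle genes were lower in 13 of 16 members, all tested, with a median of -0.83. Smtn, Cald1 and Itga8 did not overlap control, and 5.00% of all genes tested were likewise lower without overlap. The median was -0.25 without high dose 1 and -1.36 without high dose 2. Itga8 (chromosome 2, 12106632 to 12301922), the integrin subunit that anchors smooth muscle to matrix, was at 48.9, 63.9 and 45.6 FPKM in control and 4.06, 15.9 and 25.7 in high dose. Model had 175, 67.4 and 46.4, none below the lowest control. The difference was -2.02 ± 0.60 (-3.44 to -0.59). Acta2, smooth muscle actin, overlapped at 755, 1272 and 660.3 in control and 177, 982 and 406 in high dose, and so did Myh11, smooth muscle myosin, at 175, 323 and 193 against 49.2, 301 and 101. The list mean was 6.52, 6.97 and 6.03 in control and 4.37, 7.09 and 5.83 in high dose, so the mean of high dose 2 was above every control, although its Acta2, Myh11, Cald1 and Itga8 values were below those of control 2. High dose 2 was the library highest in skeletal muscle genes, with a mean of 8.38 for that list, and the part of skeletal muscle was not tested. High dose 1, the lowest, was also the library highest in neuronal genes, with Th at 599.8 and Dbh at 839 FPKM, and the part of that tissue was not tested.

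Klf4 (chromosome 4, 55527143 to 55532466), a transcription factor required for smooth muscle cells to change state in plaque, was at 48.3, 49.4 and 49.3 FPKM in control, 71.7, 120.1 and 93.9 in model and 13.8, 20.9 and 28.4 in high dose. The treated libraries lay below both other groups, by -1.24 ± 0.31 relative to control (-1.97 to -0.51). Fn1, fibronectin, was at 44.2, 52.0 and 40.5 in control and 14.3, 24.9 and 143 in high dose, where model had 533, 325 and 198. The fibroblast and collagen list was close to evenly divided, with 9 of 19 higher and a median of -0.011, while its median was 1.13 in model minus control. The high dose median ran from -0.70 without high dose 3 to 0.66 without high dose 1. Individual collagens varied widely between treated libraries, Col1a1 being at 11.2, 54.3 and 330.4 in high dose and 62.1, 75.0 and 30.0 in control. Tnc, tenascin C, was at 1.89, 3.64 and 1.75 in control and 2.69, 4.39 and 5.83 in high dose, against 24.9, 8.23 and 12.5 in model.

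Endothelial genes were lower in all 15 tested members (of 16 listed) by a small median of -0.37 (-0.15 without high dose 2, -0.73 without high dose 3), and 6 of the 15 had a 95% interval within 1 log2 unit of 0, as did 36.9% of all genes tested. Kdr and Flt1, both receptors for VEGF, were lower without overlap, as were 5.00% of all genes tested. Kdr was at 41.6, 38.1 and 84.1 FPKM in control and 30.2, 6.60 and 13.7 in high dose. Flt1 was at 19.5, 20.1 and 32.0 in control and 18.9, 8.95 and 14.2 in high dose, with an interval from -1.58 to 0.090. Pecam1 was at 154, 174 and 143 in control and 118, 119 and 198 in high dose (-0.90 to 0.60), and Nos3, endothelial nitric oxide synthase, at 24.3, 25.3 and 18.9 against 16.9, 19.1 and 34.4 (-0.80 to 0.77).

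In the circadian clock, 12 of 17 tested genes (of 18 listed) were higher with a median of 0.30 (0.042 without control 3). Of the 17, 8 did not overlap control, against 8.61% of all genes tested. An interval within 1 log2 unit of 0 was found for 6, against 36.9% of all genes tested. Those higher without overlap included Arntl, Per1, Nfil3, Ciart and Bhlhe41, and those lower were Clock and Hlf. Ciart (chromosome 3, 95878503 to 95882251), a repressor of the CLOCK and BMAL1 pair, was at 5.76, 4.92 and 3.36 FPKM in control, 1.19, 2.02 and 1.76 in model and 10.4, 9.02 and 10.1 in high dose, a difference of 0.95 ± 0.26 from control (0.33 to 1.58). Nr1d1 (chromosome 11, 98767932 to 98775333), the repressor REV-ERBα, was at 130.1, 126 and 86.7 in control, 44.6, 36.6 and 41.5 in model and 112, 134 and 101 in high dose. Its high dose values lay inside or next to the control range, with a difference of 0.030 ± 0.29 and an interval from -0.66 to 0.72. Tef, an output factor of the clock, was likewise at 60.3, 58.9 and 45.8 in control and 54.8, 49.3 and 52.3 in high dose (-0.64 to 0.51), where model had 31.3, 36.6 and 33.7. Dbp, of the same family, was at 52.2, 50.2 and 27.4 in control and 48.7, 81.6 and 75.0 in high dose, with 19.1, 6.48 and 5.57 in model. Nr1d1 overlaps the end of Thra on the opposite strand, and no source used here states whether counting used strand, so their reads cannot be told apart. The promoter of Ciart is shown because it held 3 copies of the E-box CACGTG, the letters bound by CLOCK and BMAL1, in capitals. It lies at chr3:95882179-95882478 on the minus strand (RefSeq, GRCm38.p6), and 7.15% of 32851 promoters hold at least 1 copy on either strand.
Ciart: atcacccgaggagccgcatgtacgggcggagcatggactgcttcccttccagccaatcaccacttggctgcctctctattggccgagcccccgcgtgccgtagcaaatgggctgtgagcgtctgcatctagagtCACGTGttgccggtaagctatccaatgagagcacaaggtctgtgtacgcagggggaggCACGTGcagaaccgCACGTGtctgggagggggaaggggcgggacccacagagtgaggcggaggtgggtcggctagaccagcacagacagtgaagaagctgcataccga

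Other genes higher without overlap were named by the smallness of their p, and no shared function was tested. Cyp26b1, which breaks down retinoic acid, was at 0.838, 1.54 and 0.889 FPKM in control and 4.47, 6.78 and 5.49 in high dose (1.66 ± 0.28). Fosl1, a subunit of the transcription factor AP-1, was at 0.657, 0.592 and 0.451 in control and 2.55, 4.09 and 4.78 in high dose (1.59 ± 0.29). Gadd45a, a growth arrest gene induced by stress, was at 7.27, 12.0 and 5.91 in control and 21.4, 21.0 and 26.4 in high dose (1.39 ± 0.31). Among this set Zfp143, a transcription factor, had narrow groups, at 7.81, 7.88 and 6.78 in control and 18.8, 14.5 and 17.0 in high dose (1.06 ± 0.23). Sorcs2, a sortilin-family receptor, was at 1.29, 1.49 and 1.02 in control and 5.59, 9.80 and 4.27 in high dose (1.68 ± 0.34). Sh2d5, Tsku and Ttc25 belonged to the same set, with differences of 1.32, 2.45 and 1.99.

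The genes named in the same way among those lower without overlap follow, again with no shared function tested. Adcy5, an adenylyl cyclase, was at 24.2, 25.8 and 16.4 FPKM in control and 5.23, 10.1 and 7.77 in high dose (-1.42 ± 0.32). Npy1r, the receptor by which neuropeptide Y constricts vessels, was at 6.42, 10.4 and 5.19 in control and 2.57, 1.87 and 2.33 in high dose (-1.31 ± 0.31), and Kcnab1, a potassium channel subunit, at 6.57, 10.6 and 7.43 against 2.26, 2.48 and 3.69 (-1.27 ± 0.29). P3h2, which hydroxylates collagen, was at 4.98, 4.19 and 4.11 in control and 1.66, 1.20 and 1.38 in high dose (-1.17 ± 0.25). For these 4 genes the model libraries lay within or above the control range, except 1 value of Adcy5 at 16.2. The smallest p among lower genes belonged to Susd5 (chromosome 9, 114057140 to 114098728), at 17.3, 23.1 and 23.0 in control and 6.52, 5.50 and 7.02 in high dose (-1.58 ± 0.24). Hyal1, a hyaluronidase, was at 8.80, 8.30 and 14.3 against 2.50, 3.58 and 3.18, and Aldh1a3, which makes retinoic acid, at 3.84, 6.18 and 3.53 against 1.17, 1.62 and 1.09. Cped1, Tmem204, Vstm4 and Hist1h4m completed this set with differences between -1.56 and -1.13, and reads of Hist1h4m can be shared with other histone H4 genes.

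Lgals4 and Cideb were low in model as well as in high dose. Lgals4 (chromosome 7, 28833854 to 28841708), galectin-4 of epithelia, was at 125, 140.5 and 44.2 FPKM in control, 11.0, 21.0 and 17.4 in model and 12.4, 15.2 and 16.2 in high dose (-2.59 ± 0.46, interval -3.68 to -1.49). Cideb, a lipid droplet protein, was at 6.67, 3.36 and 5.96 in control, 0.805, 1.64 and 2.38 in model and 1.46, 1.88 and 0.801 in high dose (-1.40 ± 0.34). Lgals4 lies on the same chromosome as Apoe. Retnla, a secreted protein of alternatively activated macrophages and fat, had high dose values below all control and model values, at 40.1, 89.8 and 58.6 in control, 30.6, 96.9 and 67.0 in model and 15.4, 24.5 and 16.0 in high dose (-1.66 ± 0.37).

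Neurotrophin genes were mixed, with 5 of 8 tested (of 11 listed) higher. Ntrk3, the receptor for neurotrophin 3, was at 3.13, 4.54 and 5.36 FPKM in control, 16.8, 27.4 and 23.7 in model and 2.45, 4.23 and 2.69 in high dose. The treated values were next to control and all below model, with a difference from control of -0.38 ± 0.30 (-1.10 to 0.35). Its ligand gene Ntf3 was lower without overlap, at 5.88, 10.5 and 7.98 in control and 2.33, 3.89 and 4.06 in high dose, as was the sorting receptor gene Sort1, at 27.8, 20.1 and 32.2 against 18.5, 18.2 and 17.8. Gfra1, a receptor for the glial factor GDNF, was higher without overlap, at 0.803, 1.55 and 0.871 in control and 3.64, 4.77 and 3.02 in high dose (1.22 ± 0.29).

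Erythroid genes were lower in all 8 tested members (of 12 listed), with a median of -1.15, where the median of model minus control was 1.49. Without high dose 3 the high dose median was -1.92, and the nearest to 0 on leaving out a library was -0.79. Haemoglobin genes took 3.69%, 3.12% and 1.99% of the summed FPKM in control and 0.666%, 0.567% and 4.59% in high dose. Hba-a1, an α-globin gene whose reads can be shared with its copy Hba-a2, was at 5113, 4763 and 2802 FPKM in control and 892, 1002 and 7382 in high dose. High dose 3, the library highest in macrophage genes, was above all controls for Hba-a1. Alas2, which starts haem synthesis in red cell precursors, was at 86.8, 72.5 and 69.9 in control and 12.4, 9.24 and 77.4 in high dose. Cell cycle genes were higher in 4 of 11 tested (of 18 listed), with a median of -0.084, and Mki67 was at 0.370, 3.29 and 0.571 in control, 1.87, 2.01 and 1.88 in high dose and 5.28, 6.21 and 3.97 in model.

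**Figure D3:**
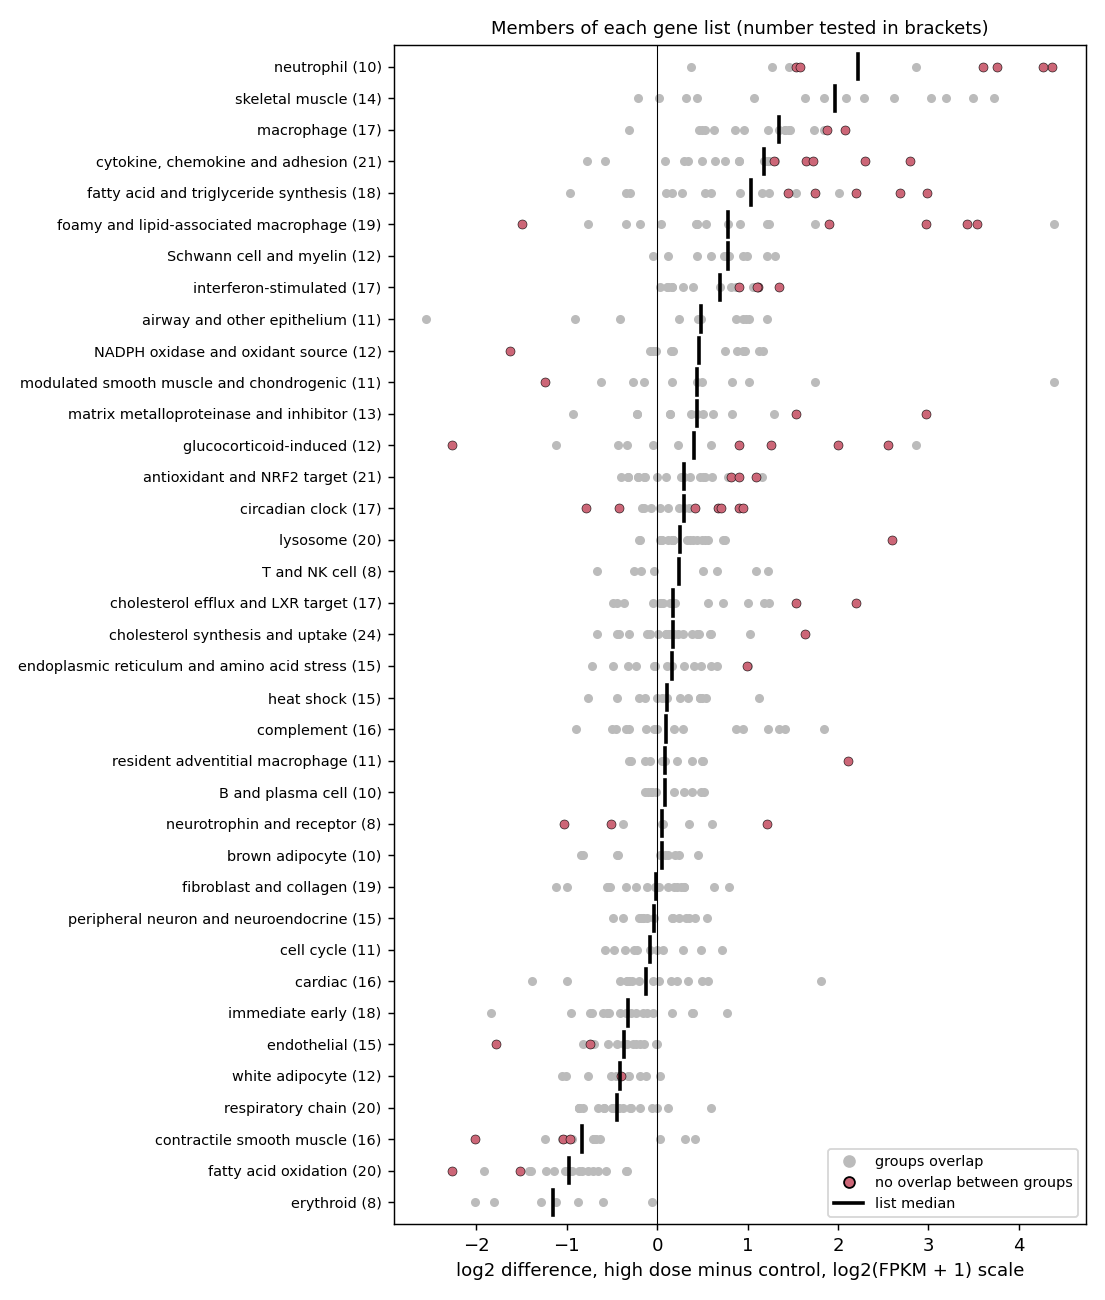
Difference of each tested and reported member of a list (points) in high dose minus control on the log2(FPKM + 1) scale, by list. Red marks groups that do not overlap, a bar marks the list median, and brackets give the number tested. Members not reported here are not drawn, while brackets and medians keep them. The thymocyte list, with 3 genes tested, is left out. Medians run from 2.22 for neutrophil genes to -1.15 for erythroid genes.

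The remaining lists are given more briefly. Of 20 lysosome genes 18 were higher with a median of 0.25 (0.063 without high dose 3), and Ctss, a cathepsin of macrophages, did not overlap, at 19.4, 47.6 and 13.8 FPKM in control and 65.9, 76.3 and 633 in high dose. In the list of resident adventitial macrophages 7 of 11 were higher with a median of 0.091, and Ccl8 did not overlap, at 3.17, 2.63 and 2.11 against 4.32, 15.1 and 42.8. Complement had 9 of 16 higher (0.094), heat shock 10 of 15 (0.11), the list of endoplasmic reticulum and amino acid stress 9 of 15 (0.16), B and plasma cells 5 of 10 (0.090) and T and NK cells 4 of 8 (0.24). Immediate early genes, transcription factors and phosphatases that respond within minutes to stimuli, were lower in 14 of 18 with a median of -0.32. Matrix metalloproteinases and their inhibitors had 10 of 13 higher (0.44, but -0.19 without high dose 3), with Mmp8 and Mmp12 without overlap. Genes of modulated smooth muscle had 7 of 11 higher (0.44, but -0.62 without high dose 3), with Klf4 lower. The lists of neighbouring tissue had 13 of 14 higher for skeletal muscle (1.97, but 0.069 without high dose 2), 11 of 12 for Schwann cells (0.78, but 0.094 without high dose 2), 8 of 11 for airway (0.48, but -2.02 without high dose 2), 7 of 15 for neurons (-0.039), 6 of 10 for brown fat (0.058) and 0 of 3 for thymocytes (-0.25), and none of their members was without overlap. Fos was at 178, 82.3 and 24.3 in control and 12.2, 15.9 and 36.0 in high dose, with overlap.

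What did not differ by much can be stated for the genes whose interval was narrow. For 4608 of the 12492 genes (36.9%) the 95% interval of the difference lay between -1 and 1, so a difference of 1 log2 unit in either direction was outside it. This holds on the log2(FPKM + 1) scale. The 1 added understates differences of low genes, so for them a narrow interval does not show similar FPKM. Among the most abundant of these were Cst3, Rpl4, Rplp0, Eif1, Sod1, Rpsa, Rps6 and Atp5g3, mostly ribosomal and translation genes. Cst3, the protease inhibitor cystatin C, was at 944, 966 and 777 FPKM in control and 819.7, 879 and 1039 in high dose (-0.84 to 0.89). Atp5g3, a subunit of mitochondrial ATP synthase, was at 781, 396 and 414 in control and 500.3, 429 and 583 in high dose (-0.97 to 0.95), while model had 175, 252 and 235. No list of macrophage, foam cell, fatty acid synthesis, fatty acid oxidation, contractile or fibroblast genes had a member with so narrow an interval. For those genes a p that missed the threshold does not show that treated and wild type arch were alike.

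**Figure D4:**
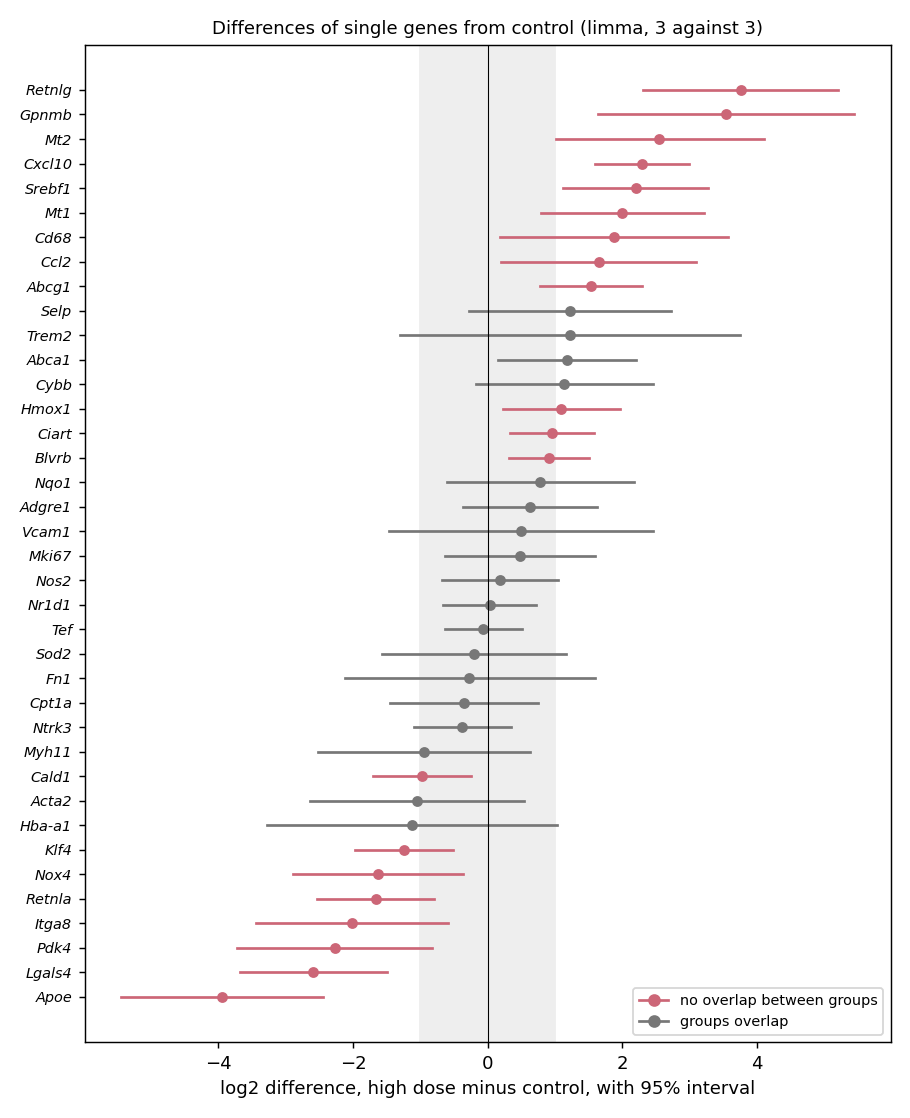
Log2 difference of single genes, high dose minus control, with the 95% limma interval as a line and the range from -1 to 1 shaded, red where the groups do not overlap. Apoe lies lowest at -3.94, Retnlg highest at 3.76, and Nr1d1 and Tef have intervals inside the shaded range.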

How the data were processed

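RNA was sequenced from 9 aortic arch libraries with NEBNext Ultra preparation, per the labels' protocols. The authors deposited FPKM values, with genome builds GRCm38.p5 and mm10 named in the submitters' processing notes. The aligner, the counter and strand handling were not given in the sources used here. As FPKM values are not counts, neither a count model nor a counting interval was used. FPKM is scaled within a library, so genes with a large share lower the others.

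Groups came from the sample titles. The main test, on log2(FPKM + 1) of the 6 libraries, was limma 3.58.1 (R 4.3.3), empirical Bayes with a trend, two-sided, with Benjamini-Hochberg adjustment. Model libraries stayed out of the fit, and model minus control values come from a fit of all 9. A pseudocount of 1 understates differences of low genes. The procedure was checked on simulated data. Tables and figures used Python 3.11.15, pandas 2.3.3 and matplotlib 3.10.9. Positions are from GENCODE M21 (93.9% of names found), and promoters were found for 98 of 124 named genes.

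Named genes were Apoe, the 15 of smallest p in each direction among genes without overlap (higher group's mean FPKM 2 or more), the 2 of smallest p in each list, a fixed panel, and the 10 most abundant genes with a narrow interval. Other genes, such as S100a8, Fasn and Dbp, were chosen after their values were seen. Some genes of the rule and the lists are not reported here, while counts over lists keep them. The members and the 38 lists were chosen with earlier results of these data known. Alternatives were other pseudocounts, filters, scalings and weights, all 9 libraries in the fit, a replicate block, a heart muscle covariate, the 4 libraries high in heart muscle genes, and each library left out.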

Additional observations from a re-analysis of the deposited data

How the results depend on the processing

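In all 17 alternatives 0 genes passed limma at an adjusted p under 0.05. The smallest adjusted p ran from 0.326 (all 9 libraries in 1 fit) to 1.000, and genes at an unadjusted p under 0.05 from 237 to 948. Genes without overlap numbered 1632 higher and 2969 lower in the 4 libraries high in heart muscle genes, and 576 to 1792 higher and 912 to 1675 lower when 1 library was left out, where fewer samples overlap less by construction. Genes with an interval within 1 log2 unit numbered 8981 of 18557 without a filter, where more low genes entered. They numbered 2220 in the 4 libraries, and 2040 to 3480 when 1 library was left out.

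Deviations from the group mean correlated at -0.53, 0.24 and -0.18 for same-numbered libraries. For differently numbered libraries they correlated at -0.38 to 0.44. Neighbouring tissue enters these deviations too, so they cannot decide whether the numbers pair the samples. With the replicate number as a block, 0 genes passed, 318 had an unadjusted p under 0.05, and 2259 had an interval within 1 log2 unit.

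Leaving out 1 library at a time, the median of 21 of the 38 lists kept its sign, among them the neutrophil, macrophage, chemokine, interferon, fatty acid synthesis, fatty acid oxidation, contractile and erythroid lists, and that of 17 did not. The 8 abundant genes named for a narrow interval had no direction called, and 7 of them changed sign in at least 1 setting. Of the other 116 named genes tested, 97 kept their direction in every setting in which they passed the filter (17, or 16 for 22 genes). The other 19 are reversed in 49 of 1950 pairs of gene and setting, and the cause was not tested. Part of these counts was fixed by the choice, since genes named for lack of overlap cannot change direction when a library is left out. The fit of all 9 libraries and the replicate block leave the difference itself unchanged. With array weights the difference was 0.55 for Cd1d1, 0.20 for Slc27a2, 0.15 for Fn1, -0.13 for Nr1d1 and 0.14 for Th. Quantile normalization gave -0.0085 for Nr1d1. In the 4 libraries it was 0.22 for Cd1d1, -0.59 for Cd22, -0.97 for Chga, -1.36 for Chgb, -0.031 for Pmp22, 0.32 for Fn1, 0.24 for Sod2 and -0.14 for Nr1d1. With 1 library left out the values ran as follows: Cd1d1 -1.11 to 0.53, Tcf7 -0.99 to 0.89, Cd22 -0.18 to 1.73, Slc27a2 -1.71 to 0.37, Myl2 -3.97 to 0.16, Chga -0.77 to 1.91, Chgb -1.24 to 1.80, Sftpc -4.18 to 0.26, Foxj1 -0.51 to 2.36, Fn1 -1.22 to 0.40, Sod2 -0.71 to 0.40, Nos2 -0.0062 to 0.43, Vcam1 -0.37 to 0.94, Nr1d1 -0.16 to 0.13, Myh6 -3.34 to 2.43, Ucp1 -1.59 to 0.38, Scgb1a1 -2.19 to 3.80 and Th -2.33 to 1.73.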

Other observations

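A few genes sat at separate levels across libraries in ways that the groups did not follow. They were chosen after their values were seen. Acadvl, the mitochondrial very long-chain acyl-CoA dehydrogenase, was at 2.79, 39.7 and 38.9 FPKM in control, 1.89, 44.7 and 41.0 in model and 5.83, 5.08 and 1.72 in high dose. Snrpc, a component of the U1 splicing particle, was at 13.8 and 12.3 FPKM in high dose 1 and high dose 3 and at most 0.442 in the other libraries. Ufd1l, which acts in protein degradation, was at 6.32 in control 3 and 6.09 in model 3 and at most 0.493 elsewhere. Aif1, a macrophage marker, was at most 0.113 in every library, and Cldn5, an endothelial one, at most 1.39, although Cd68 and Pecam1 were well above these levels in the same libraries.

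Airway and adrenal-type genes marked single libraries. Scgb1a1, the club cell secretory protein, was at 18.1, 6425 and 16.4 FPKM in control and 10.5, 20438 and 68.6 in high dose. Sftpc, the alveolar surfactant protein C, was at 1599 in control 2 and at most 11.2 in the other 5 libraries compared, although Scgb1a1 was higher in high dose 2. Foxj1, the regulator of motile cilia, was at 57.5 in high dose 2 and 9.94 in control 2. Th, tyrosine hydroxylase of catecholamine neurons, was at 5.17, 128 and 32.6 in control, 599.8, 15.4 and 1.15 in high dose and at most 0.644 in model.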
